A study of Canis lupus familiaris with 10 samples.

Results

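The integrin alpha chains ITGAL, ITGAM, ITGAX, ITGA4, ITGA2, ITGA11 and ITGAV were followed in canine visceral adipose tissue (VAT) before and after long-term stimulation with an ACTH analog. These are 7 of the 19856 genes counted in every library, and all 7 were among the 13577 genes tested, which had at least 10 reads in at least 1 library. They were selected on measured values, since the study lists them among the genes it called, by their p-value, between Post-ACTH and Pre-ACTH in these same samples. Alpha chains that missed its threshold have no name here and were not analysed. The lower level of the 7 chains after treatment was therefore fixed by the choice, and its values are given as a description, without a test. ITGAL, ITGAM, ITGAX and ITGA4 are grouped as leukocyte chains, and ITGA2, ITGA11 and ITGAV as matrix-binding chains.

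VAT was taken by laparotomy from 5 adult Beagle dogs, 3 males and 2 females, named here dogs 1 to 5 by ascending animal ID. Each dog gave a Pre-ACTH sample before any treatment and a Post-ACTH sample after 25 weeks of tetracosactide, a synthetic ACTH that raises the dog's own cortisol, so that 10 libraries formed 5 within-dog pairs. Doses per day were raised over this time from 1.3 to 1.95 μg/kg up to 6 to 10 μg/kg, and subcutaneous osmotic pumps, each worn for 4 weeks, delivered them. No dogs with an empty pump are among these samples, so the drug, the elapsed time, the pumps and the earlier laparotomy cannot be told apart. The libraries held 8728330 to 14867529 counted reads in Pre-ACTH and 12314258 to 14589329 in Post-ACTH, and the smallest was the Pre-ACTH library of dog 3. LIPE, the hormone-sensitive lipase of adipocytes, was abundant in every library, with 19596 to 25067 normalized counts before treatment and 27688 to 33574 afterwards (reads scaled to a common library size), while the other adipocyte markers of the fixed list have no identifier in the names used here.

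Integrins are receptors of the cell surface built from an alpha and a beta chain, and the alpha chain largely sets which ligand is bound. ITGAL (CD11a), ITGAM (CD11b) and ITGAX (CD11c) pair with the beta chain ITGB2 on white blood cells and bind ICAM adhesion molecules, fibrinogen or complement fragments, whereas ITGA4 (CD49d) binds VCAM1 and fibronectin and is carried by lymphocytes, monocytes and mast cell precursors. ITGA2 and ITGA11 pair with ITGB1 and bind fibrillar collagen, ITGA2 on platelets, epithelium and fibroblasts, and ITGA11 mainly on fibroblasts. ITGAV is made by many cell types and binds vitronectin, fibronectin and the latent form of TGF-beta. In adipose tissue, CD11c marks dendritic cells and a class of macrophages, and fibroblast integrins hold progenitor cells to the collagen around adipocytes.

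All 7 chains were lower in Post-ACTH than in Pre-ACTH in each of the 5 dogs, a pattern that held for 13.5% of all genes tested. The difference was widest for ITGA11, ITGA2 and ITGAX, which stood at 18.4%, 20.6% and 21.1% of their Pre-ACTH level, and narrowest for ITGAV, at 74.0%. Hence both the widest and the narrowest differences belonged to matrix-binding chains. For 6 of the 7 chains, every Post-ACTH library lay below every Pre-ACTH library, compared with 4.74% of all genes, and ITGAM was the exception. At an FDR under 0.01, edgeR's quasi-likelihood test, paired by dog, called 1 of the 7 chains, ITGAL, against 1.22% of all genes called lower. At an FDR under 0.05 it called all 7, against 6.28%, and DESeq2 at an FDR under 0.01 called all 7, against 5.12%. Without dog 2, 3 or 5 edgeR called none of the chains at an FDR under 0.01. Over all genes it then called 0 lower and 1 higher without dog 2, and 7 and 5 without dog 3. The counts were 17 and 6 without dog 5 and 81 and 36 without dog 4, against 166 and 102 with all dogs. Without the pairing edgeR called 4 chains, and 150 genes lower over all genes. These counts follow from how the chains were chosen and are not read further. In bulk tissue, fewer cells of a type and less RNA per cell cannot be told apart.

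**Figure D1:**
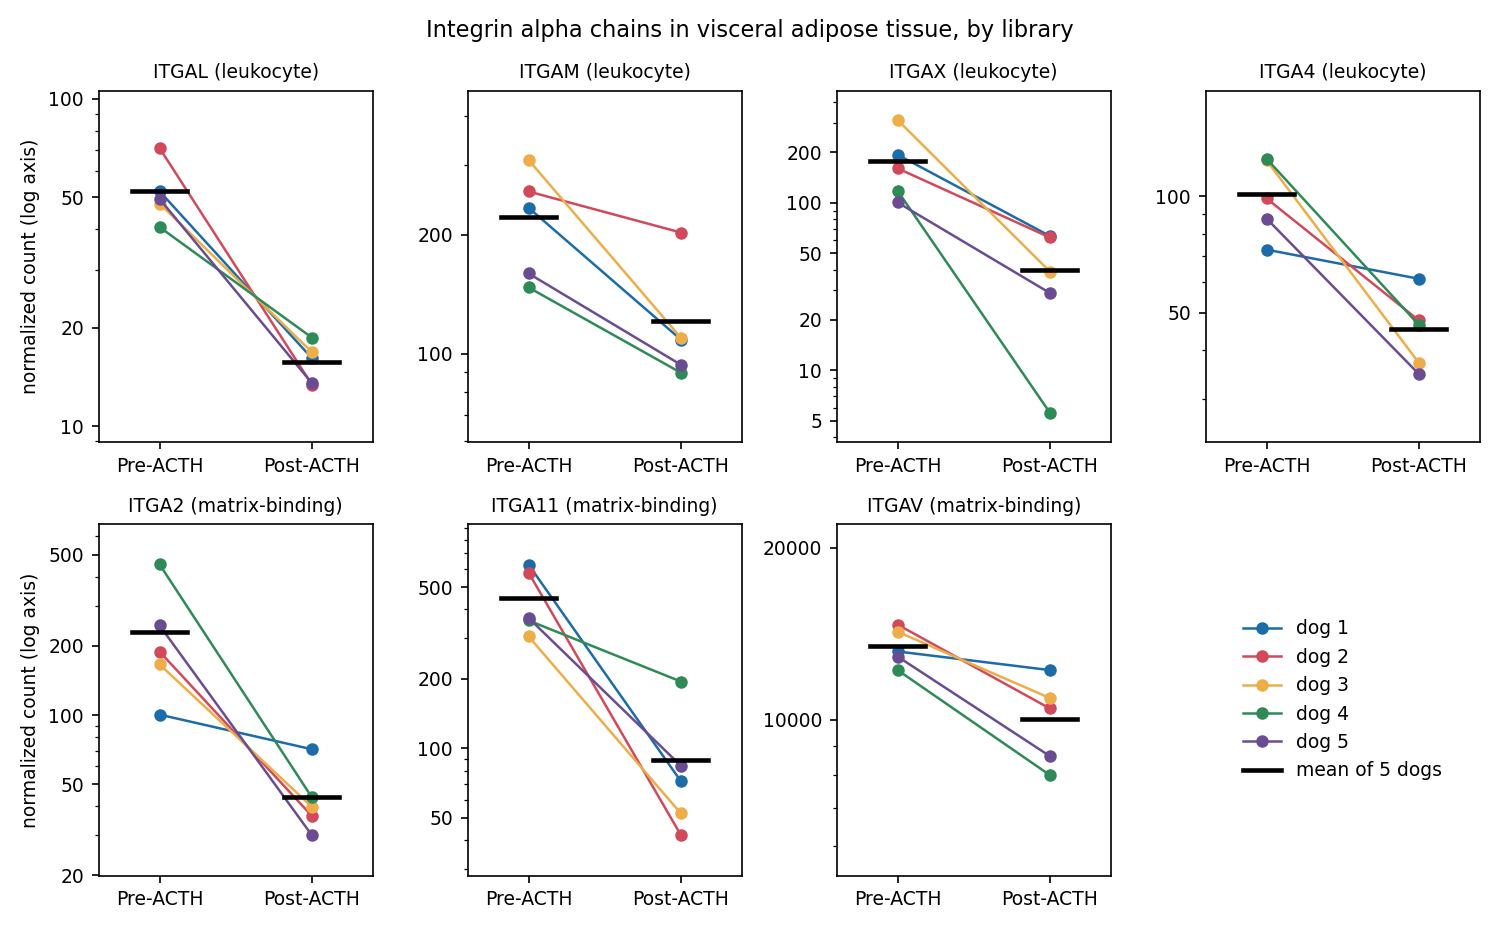
Normalized counts (log axis) of the 7 chains in every library, with 1 line per dog joining its Pre-ACTH and Post-ACTH sample and a black bar for the mean of 5 dogs. Every line slopes down, the groups overlap for ITGAM alone, and the Post-ACTH values of ITGAM in dog 2 (203) and ITGA11 in dog 4 (195) stand above those of the other dogs.

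Among the leukocyte chains, ITGAL (ENSCAFG00000016603), the alpha chain with which lymphocytes grip ICAM1, was measured at 52.2, 70.7, 47.9, 40.6 and 49.5 normalized counts in Pre-ACTH (dogs 1 to 5). In Post-ACTH the values were 16.1, 13.4, 16.8, 18.6 and 13.5 normalized counts. All Post-ACTH values lay close together and well under the lowest Pre-ACTH value, with means of 52.2 ± 11.2 and 15.7 ± 2.24 (SD, n = 5). The log2 fold change was -1.71 (SE 0.26), but the chain was covered by only 14 to 73 reads per library, so the ratios of single dogs are imprecise.

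ITGAM (ENSCAFG00000016881), the chain of the complement receptor on macrophages, monocytes and neutrophils, had 234, 258, 309.8, 147 and 159.7 normalized counts in Pre-ACTH. Its Post-ACTH values were 109, 203, 109.7, 89.5 and 93.7 normalized counts. The Post-ACTH value of dog 2 exceeded the Pre-ACTH values of dogs 4 and 5, so the groups overlapped. The log2 fold change was -0.88 (SE 0.17), the smallest of the leukocyte chains.

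ITGAX (ENSCAFG00000016883), the chain of dendritic cells and some macrophages, had 194, 161, 313, 118 and 101 normalized counts in Pre-ACTH. It had 63.4, 62.2, 38.9, 5.59 and 29.0 in Post-ACTH. The groups did not overlap, and the level varied more between dogs than that of any other leukocyte chain in both conditions, with coefficients of variation of 47.4% and 60.8%. The log2 fold change was -2.25 (SE 0.38), and the log2 ratio of dog 4, -3.98, rests on 6 reads in its Post-ACTH library. Without dog 4 the log2 fold change was -1.94.

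ITGA4 (ENSCAFG00000014175) showed 72.9, 98.8, 124, 125 and 87.7 normalized counts in Pre-ACTH and 61.3, 47.8, 37.2, 46.6 and 34.8 in Post-ACTH. The groups were set apart by a narrow margin, since dog 1 held both the lowest Pre-ACTH and the highest Post-ACTH value. In dog 1 the log2 ratio was only -0.24, against -1.68 to -1.02 in the other dogs, with a log2 fold change of -1.16 (SE 0.23).

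Among the matrix-binding chains, ITGA2 (ENSCAFG00000018423), a collagen receptor, was measured at 100.4, 189, 166, 453 and 246 normalized counts in Pre-ACTH. It was measured at 70.9, 36.4, 39.8, 43.8 and 29.9 in Post-ACTH. Dog 1 again lay nearest to the border from both sides, with a log2 ratio of -0.49, whereas dog 4, with the highest Pre-ACTH value, had a log2 ratio of -3.31. Over all dogs the log2 fold change was -2.28 (SE 0.39), and it was -2.72 without dog 1 and -1.98 without dog 4.

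ITGA11 (ENSCAFG00000017482), the collagen receptor of fibroblasts, had 625, 577, 306, 358 and 367 normalized counts in Pre-ACTH. In Post-ACTH it had 72.0, 42.1, 52.2, 195 and 84.1 normalized counts. Means were 447 ± 144 and 89.0 ± 61.3 (SD, n = 5), and dog 4 kept the most, with a log2 ratio of -0.87 against -3.72 to -2.10 in the other dogs. The log2 fold change was -2.44 (SE 0.38), the largest among the 7 chains, and it was -2.87 when dog 4 was left out.

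ITGAV (ENSCAFG00000014597) gave 13172, 14680.1, 14265, 12220.1 and 12906 normalized counts in Pre-ACTH and 12218, 10467, 10916, 8001 and 8638 in Post-ACTH. The highest Post-ACTH value, that of dog 1, lay just below the lowest Pre-ACTH value, that of dog 4. With 8587 to 15152 reads per library it was the most precisely counted chain, and its coefficient of variation in Pre-ACTH was 7.49%. Its log2 fold change was -0.43 (SE 0.10). Transcript lengths were not used, so the levels of different chains are not compared with each other.

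**Figure D2:**
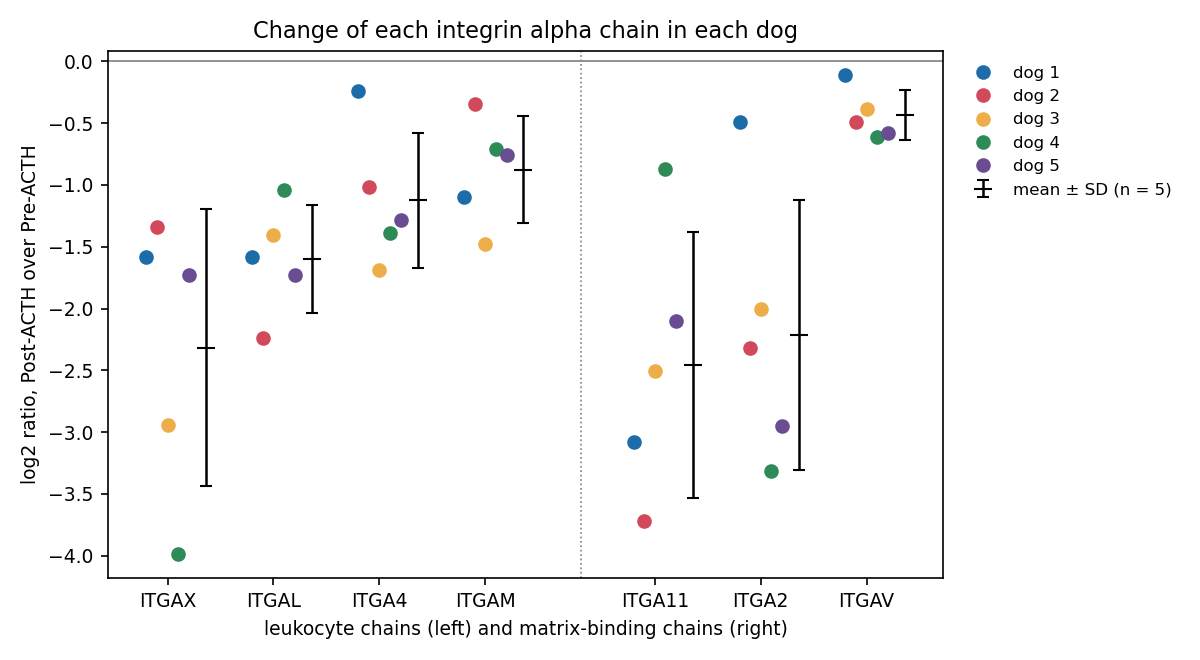
Log2 ratio of Post-ACTH over Pre-ACTH (log2 CPM, prior count 2) of each chain in each dog, with leukocyte chains on the left, matrix-binding chains on the right, and the mean ± SD of 5 dogs in black. All points lie below 0, dog 4 is the lowest point for ITGAX (-3.98) and the highest for ITGA11 (-0.87), and ITGAV spans only -0.61 to -0.11.

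The leukocyte and the matrix-binding chains were then set side by side. The median log2 fold change was -1.43 for the 4 leukocyte chains (range -2.25 to -0.88) and -2.28 for the 3 matrix-binding chains (range -2.44 to -0.43), whereas the median of all genes tested was -0.0021. The range of the matrix-binding chains thus enclosed that of the leukocyte chains. ITGA11 and, narrowly, ITGA2 lay below all 4 leukocyte chains, and ITGAV lay above them. In single dogs the median of the leukocyte chains lay between -1.58 and -1.18, with a mean of -1.36 ± 0.18 (SD, n = 5). That of the matrix-binding chains ran from -2.32 to -0.49. A median of 4 chains averages the middle 2, whereas that of 3 is a single chain, so these spreads are not compared. Single leukocyte chains varied more between dogs than their median, with SDs of log2 ratios from 0.43 (ITGAM) to 1.12 (ITGAX). The leukocyte median minus the matrix-binding median was 0.84 in the fit, and 0.51 without dog 4. In single dogs it was -0.85, 1.14, 0.42, -0.34 and 0.59 for dogs 1 to 5, with a mean of 0.19 ± 0.79 (SD, n = 5), so its sign differed between dogs.

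The order of the chains changed from dog to dog. ITGA11 showed the largest difference in dogs 1 and 2, ITGAX in dogs 3 and 4, and ITGA2 in dog 5. Of the 21 pairs of chains, 9 kept the same order of log2 ratios in all 5 dogs, and 5 of these 9 contained ITGAV, whose ratio was nearest to 0 in each of them. Within the leukocyte chains, ITGAX had a lower ratio than ITGAM in all 5 dogs, by 1.44 ± 1.08 on the log2 scale (SD, n = 5). It also had a lower ratio than ITGA4 in all 5 dogs (difference -1.19 ± 0.91). ITGAM and ITGAX are direct neighbours on chromosome 6 of the RefSeq annotation of UU_Cfam_GSD_1.0, so a pair of adjacent genes of related sequence differed in the size of the change. Reads shared between such relatives could have been split or dropped, and how the counting treated them is not given in the sources used here.

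Each chain was next compared with reference genes of leukocytes or of fibroblasts. ITGA2 and ITGAV are also made by other cell types, so the fibroblast genes do not stand for all cells that carry them. The reference for leukocyte chains was the median log2 CPM of PTPRC (CD45, the phosphatase of all white blood cells), LAPTM5 and LCP1, which are 3 of 5 fixed genes with a name here. For matrix-binding chains it was the median of DCN, LUM and FBLN1, matrix genes of fibroblasts and 3 of 6 fixed genes. These reference genes too carry a name only because the study had called them. The median log2 ratio of the 3 leukocyte reference genes was -1.08 ± 0.65, and that of the 3 fibroblast reference genes -1.30 ± 0.46 (SD, n = 5). These medians of ratios are not identical to the change of the median level that was subtracted.

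Relative to the leukocyte reference, ITGAX was lower in all 5 dogs, with a mean log2 change of -1.30 ± 0.45 (SD, n = 5, range -2.07 to -0.91). ITGAM had a mean of 0.14 ± 0.69 (range -0.57 to 1.21) and ITGA4 of -0.11 ± 0.59 (range -0.86 to 0.52), so both lay above the reference in some dogs and below it in 2 of 5. Their sign turned when single dogs were left out, to -0.13 for ITGAM without dog 4 and to 0.010 and 0.080 for ITGA4 without dogs 2 and 5. For ITGAL the mean was -0.59 ± 1.15, with -1.05, -1.81 and -1.31 in dogs 1, 2 and 5. In dogs 3 and 4 ITGAL lay above the reference, by 0.37 and 0.87, and its mean was -0.28 without dog 2 and -0.95 without dog 4. In those same dogs the median log2 ratio of the 3 reference genes was lowest, at -1.72 and -1.86, against -0.69 to -0.52 in the others. Of the leukocyte chains, ITGAX was thus the one whose difference exceeded that of the general white-cell genes in each dog. The summed level of PTPRC, LAPTM5 and LCP1 lay between 735 and 1427 normalized counts before treatment and between 265 and 662 afterwards, and that of CSF1R, C1QB and LYZ, genes of macrophages and monocytes and 3 of 11 listed, between 1324 and 2499.7 and between 686 and 1535. These macrophage genes did not go one way, and none passed the FDR of 0.01 in edgeR. C1QB, a complement chain made by macrophages, was higher in all 5 dogs, with a log2 fold change of 1.00 (adjusted p = 0.0330), against -0.89 for LYZ (adjusted p = 0.0178) and -0.75 for CSF1R (adjusted p = 0.0576). None of these genes was at 0 in a library, and the part of white-cell number in the changes of the chains was not tested.

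**Figure D3:**
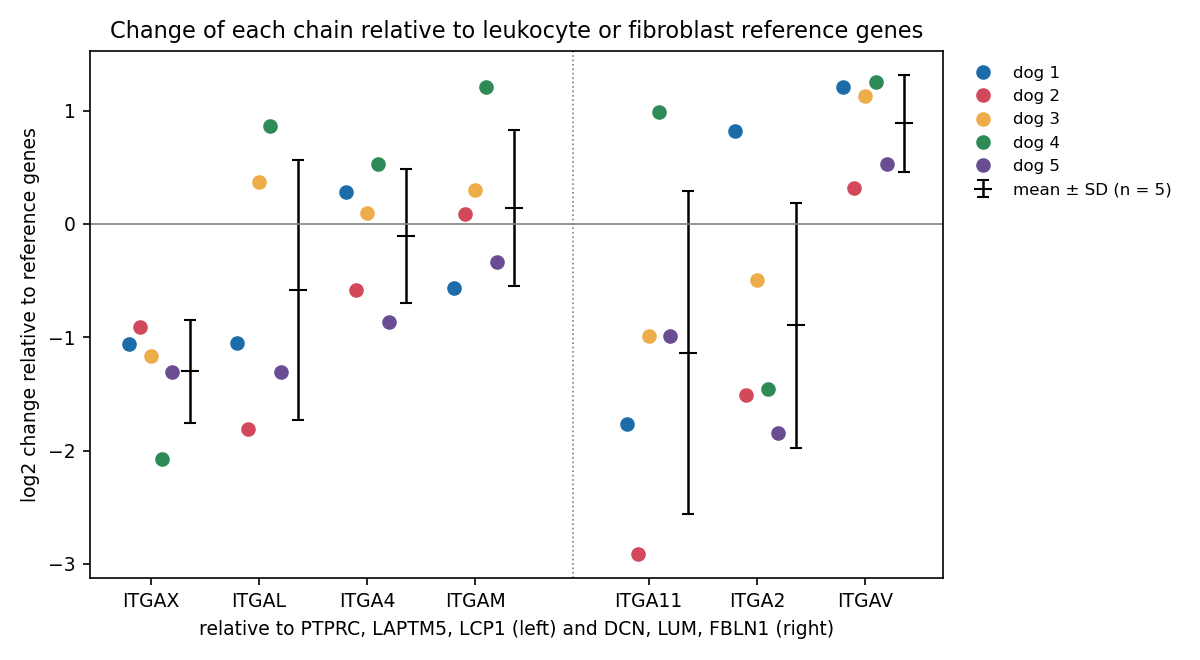
Log2 change of each chain minus that of its reference genes in each dog, with PTPRC, LAPTM5 and LCP1 as reference on the left and DCN, LUM and FBLN1 on the right, and the mean ± SD of 5 dogs in black. ITGAX lies below 0 in all dogs (-2.07 to -0.91), ITGAV lies above 0 in all dogs (0.32 to 1.25), and the other chains lie on both sides.

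Relative to the fibroblast reference, ITGA11 was lower in 4 of 5 dogs, with a mean of -1.13 ± 1.42 (SD, n = 5). Dog 4 was the exception at 0.99, and the mean was -0.69 without dog 2 and -1.67 without dog 4. ITGA2 was lower in 4 of 5 dogs as well (-0.90 ± 1.08), the exception being dog 1 at 0.82. ITGAV was higher than the fibroblast reference in all 5 dogs, by 0.89 ± 0.43. The 3 matrix-binding chains therefore departed from the fibroblast genes in both directions. The summed level of DCN, LUM, FBLN1 and PI16 lay between 6578 and 19208 normalized counts before treatment and between 3065 and 5086 afterwards. ITGA2 is also carried by platelets, and PPBP, a platelet chemokine and the only platelet marker with a name here, rose by 2.18 on the log2 scale (SE 0.30) with an adjusted p of 0.00791 in edgeR. Its values lay between 5.63 and 25.2 normalized counts before and between 20.4 and 173 after treatment, so the groups overlapped. The part of either cell class was not tested.

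To see what the chains shared beyond the rule that chose them, the genes with the nearest profile were taken from 975 other named genes averaging at least 50 reads, by the root mean square (RMS) difference of log2 CPM over the 10 libraries after centring each gene on its mean. ITGAL averaged fewer reads and was left out. All of these names come from the study's list of called genes, so a common lower level after treatment is no finding. ITGAM was nearest to FMNL1 (RMS 0.14), FERMT3 (0.19) and CORO1A (0.21), genes of the white-cell cytoskeleton and of integrin activation. ITGAX was nearest to DLA-DQA1 (0.40), CFP (0.49) and DLA DRA (0.49). DLA-DQA1 and DLA DRA are canine MHC class II chains, which present antigen on dendritic cells, macrophages and B cells, and CFP encodes properdin of the complement system. The nearest profiles to ITGA11 were those of the collagens COL6A3 (0.53) and COL1A1 (0.55) and of the adrenergic receptor ADRA2A (0.54). ITGA2 was nearest to STEAP4 (0.44), SLIT2 (0.48) and FBLN7 (0.54), ITGA4 to OGFRL1 (0.18), C10orf107 (0.24) and COTL1 (0.26), and ITGAV to PCDH7 (0.09), SCPEP1 (0.10) and TBC1D1 (0.12).

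When, as an alternative chosen after seeing the data, each gene was centred within Pre-ACTH and within Post-ACTH, which removes the treatment difference and leaves the variation between dogs, 6 of these 18 genes stayed among the nearest. For ITGAX the nearest genes were then DLA-DQA1 (RMS 0.37), DLA DRA (0.39) and HLA-DRB1 (0.41), all MHC class II chains. The low Post-ACTH value of ITGAX in dog 4 was accompanied by log2 ratios of -4.38 for DLA-DQA1 and -2.70 for DLA DRA in that dog. In dog 1 they parted, with log2 ratios of -1.58 for ITGAX, -0.70 for DLA-DQA1, -0.21 for DLA DRA and -0.02 for HLA-DRB1. For ITGA11 the nearest gene was MMP2 (0.22), a protease that cleaves collagen, which in dog 4 had a log2 ratio of -0.04, against -1.81 to -1.14 elsewhere. COL6A3 and COL1A1 were no longer among its 3 nearest genes. FMNL1 stayed nearest to ITGAM, but FERMT3 and CORO1A gave way to COL23A1 and SPSB1, the latter with a log2 fold change of 1.08. For ITGA2 all 3 genes were replaced, by FSD2, ALPK2 and ADORA1, of which FSD2 and ADORA1 had log2 fold changes of 1.27 and 0.92. OGFRL1 stayed nearest to ITGA4 and PCDH7 to ITGAV, while the other 2 genes of each were replaced. These distances describe 10 libraries of 5 dogs and carry no test.

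**Figure D4:**
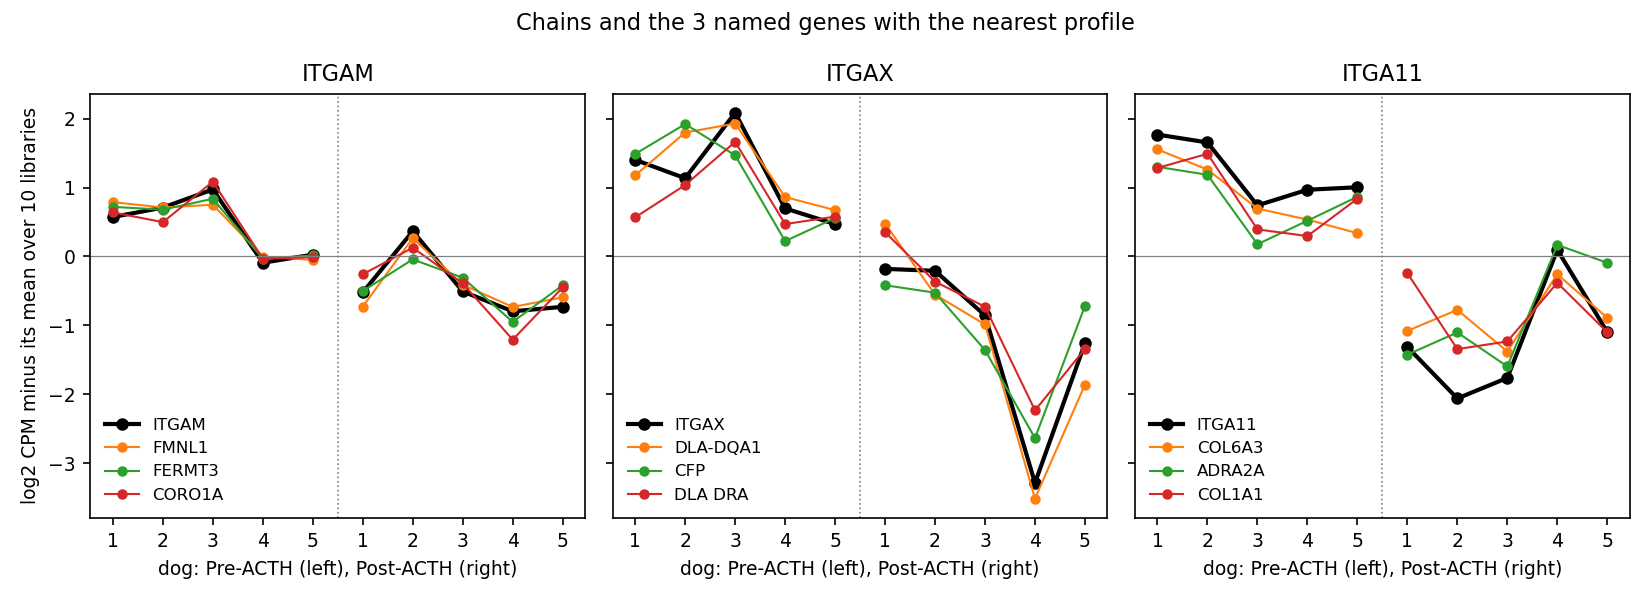
Log2 CPM of ITGAM, ITGAX and ITGA11 (black) and of the 3 named genes nearest to each (colours), centred on each gene's mean over the 10 libraries, for dogs 1 to 5 in Pre-ACTH and Post-ACTH. ITGAX, DLA-DQA1, CFP and DLA DRA share a low point in the Post-ACTH library of dog 4, where ITGA11, COL6A3 and ADRA2A are at their highest Post-ACTH level, while that of COL1A1 lies in dog 1.

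Ligands, activators and signalling partners of integrins were followed with fixed lists. Only names in the study's list of called genes could be matched, so these counts cover called genes by construction and say little of the lists as a whole. None of the 8 beta chains and none of the 11 other alpha chains was matched under the symbols searched, and they were not analysed here. The study's list does name GPIIIa, a synonym of the beta chain ITGB3, which the search by symbol missed. ITGBL1, which encodes a secreted protein resembling beta chains and is no integrin chain, was lower in all 5 dogs, from 119 ± 61.0 to 34.2 ± 10.6 normalized counts (SD, n = 5).

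Of the ligands of leukocyte chains, 3 of 15 were matched, and none passed the FDR of 0.01. VCAM1, the endothelial ligand of ITGA4, had 711 ± 131 normalized counts in Pre-ACTH and 1272 ± 359.8 in Post-ACTH (SD, n = 5). The log2 difference was 0.82 ± 0.14 (SE), with an adjusted p of 0.0134 by edgeR. It was higher in all 5 dogs without overlap, which held for 4.3% of all genes, and so lay opposite to ITGA4 itself. C3, the complement protein whose fragments ITGAM and ITGAX bind, differed by -0.92 ± 0.24 (SE) on the log2 scale with an adjusted p of 0.0514, and THY1 by -1.55 ± 0.26 with an adjusted p of 0.0128, both by edgeR.

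Of the matrix ligands, 11 of 25 were matched, all through the study's calls in these same samples. At an FDR under 0.01 edgeR called 5 of them lower and 1 higher, against 1.22% and 0.751% of all genes. At an FDR under 0.05 the counts were 8 and 3, against 6.28% and 4.84%. Given how the ligands were matched, no excess over these shares is read from the counts. COL3A1, a fibrillar collagen bound by ITGA2 and ITGA11, had 9502 ± 3609 normalized counts before and 1827 ± 676 after treatment (SD, n = 5). It fell by 2.37 on the log2 scale (SE 0.28), with an adjusted p of 0.00475 by edgeR. COL1A2 fell by 1.68 on the log2 scale (SE 0.17, adjusted p = 0.00351), while its partner chain COL1A1 had a log2 fold change of -1.72 (SE 0.27) and missed the threshold with an adjusted p of 0.0105. LTBP1, which stores latent TGF-beta in the matrix, fell by 1.29 (SE 0.12, adjusted p = 0.00267). TGFB3 and COL6A3 were the other genes called lower. Fibronectin (FN1), a ligand of ITGAV and ITGA4, had 4043 ± 2227 and 914 ± 225 normalized counts, a log2 difference of -2.01 with an adjusted p of 0.0153. Periostin (POSTN), a matrix ligand of ITGAV, rose by 2.65 (SE 0.37, adjusted p = 0.00806), from few reads and with overlapping groups (13.4 ± 14.0 and 97.3 ± 100.1 normalized counts). Single dogs did not rank alike for ITGA2 and these collagens. Dog 4 had log2 ratios of -3.31 for ITGA2, -0.68 for COL1A1 and -2.50 for COL3A1, and dog 1 of -0.49 for ITGA2 and -2.18 for COL3A1. ITGA11 and COL1A1, in contrast, shared dog 2 as the lowest (-3.72 and -2.83) and dog 4 as the highest (-0.87 and -0.68). For COL3A1 the highest ratio was that of dog 3 (-1.35).

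On the inner side of the membrane, FERMT3 (kindlin-3, which activates integrins in blood cells) was the only one of 16 listed talins, kindlins and activators with a name. It had 132 ± 36.5 and 69.7 ± 15.7 normalized counts and was lower in all 5 dogs, with a log2 difference of -0.91 ± 0.16 (SE) and an adjusted p of 0.0147. Of 17 genes of leukocyte integrin signalling, 6 were matched through the study's called genes. All 6 were lower in all 5 dogs, against 13.5% of all genes. At an FDR under 0.01 edgeR called 2 of them lower, against 1.22% of all genes. PLCG2, a phospholipase downstream of SYK, fell by 0.90 (SE 0.12, adjusted p = 0.00683). DOCK2, which activates RAC in migrating white cells, fell by 1.10 (SE 0.16, adjusted p = 0.00875). RAC2, the white-cell RAC, had 43.6 ± 16.7 and 11.1 ± 6.41 normalized counts (adjusted p = 0.0112). Of 21 adhesion adaptors and kinases, TNS2 alone was matched, with a log2 fold change of 0.49 and an adjusted p of 0.0389. Among the receptors that trigger arrest of rolling white cells, CCR2, which draws monocytes into tissue, fell from 33.8 ± 16.5 to 3.06 ± 2.57 normalized counts (adjusted p = 0.00811), so its change rests on few reads. Over all these lists and the reference genes, edgeR called 11 genes lower at an FDR under 0.01. It called 0 lower without dog 2 or dog 3, 3 without dog 5, and 6 without dog 1 or dog 4. Calls over all genes moved too, from 166 lower with all dogs to 0 without dog 2 and 7 without dog 3. They were 17 without dog 5, 81 without dog 4 and 202 without dog 1. A lost call does not mean that a gene was no longer lower. The number of listed genes called higher was 1 with all dogs and without dog 4, and 0 without any other dog or without the pairing.

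**Figure D5:**
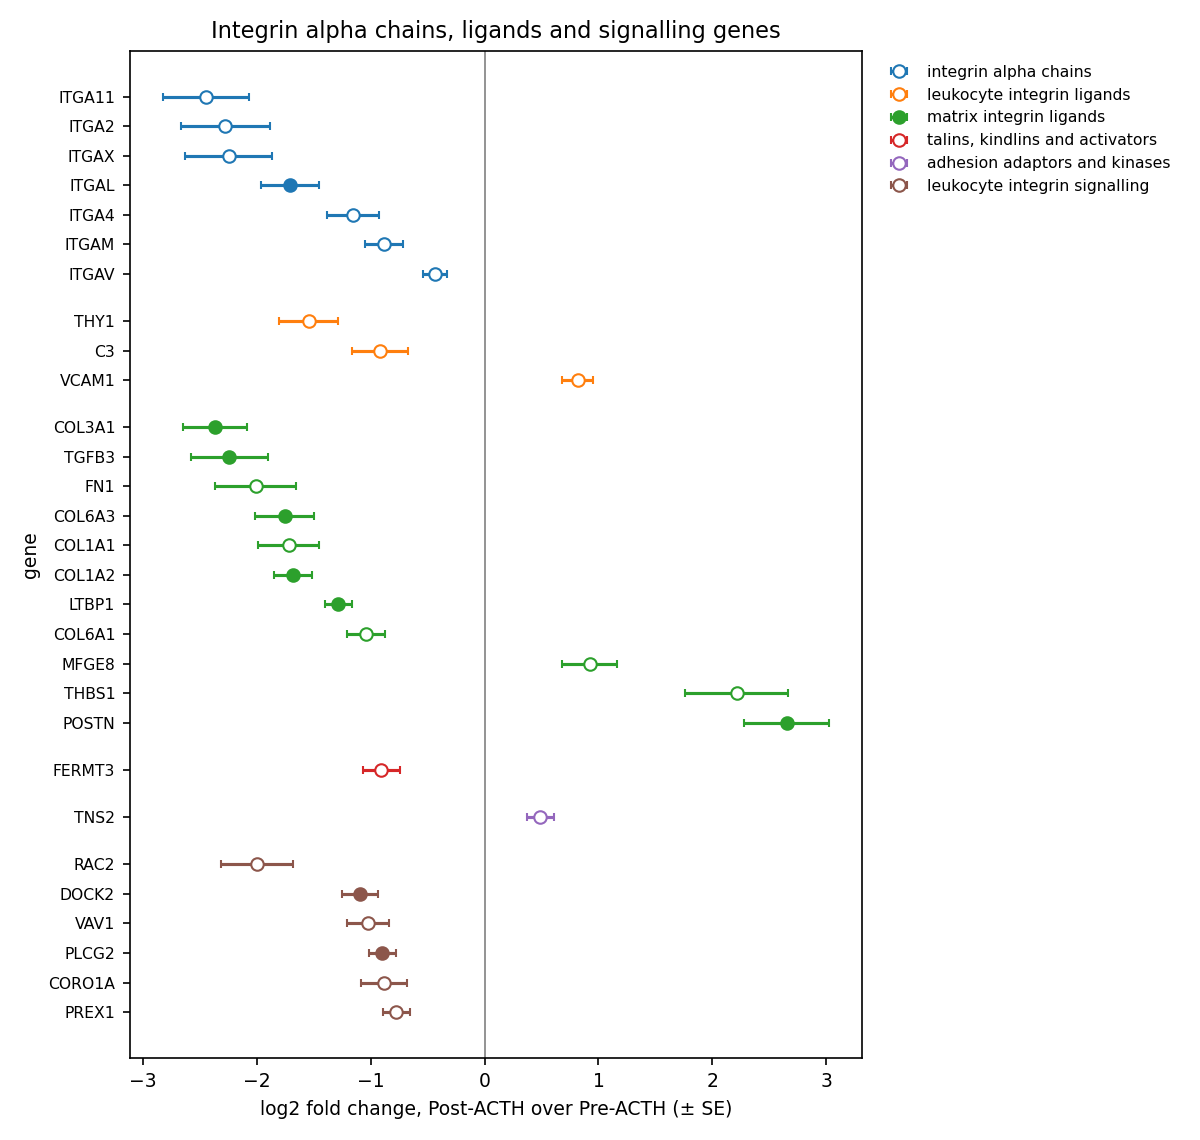
Log2 fold change (± SE) of the 7 chains and of the matched ligands, activators and signalling genes, coloured by list, with filled points for genes called at an FDR under 0.01. Most points lie left of 0, and VCAM1 (0.82), MFGE8 (0.92), THBS1 (2.22), POSTN (2.65) and TNS2 (0.49) lie to the right.

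The choice of the chains did not use sex, but a choice by paired p-value favours changes that are even across dogs. The comparison of males and females is thus not fully independent of it. Power is low with so few dogs of each sex, so a missing call does not show equal changes. A treatment by sex term, fitted over all genes with 2 females and 3 males, reached an FDR under 0.01 for 0 of 13577 genes in edgeR's quasi-likelihood test, with 435 genes at an unadjusted p under 0.05, and for 5 genes in DESeq2, all without a symbol. No chain was among them. The widest difference was that of ITGA11, whose log2 change was lower by 1.15 in females than in males (SE 0.69, adjusted p = 1, edgeR), with mean log2 ratios of -3.11 and -2.02.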

How the data were processed

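RNA-seq was analysed for 10 libraries of canine VAT, 5 Pre-ACTH and 5 Post-ACTH, paired by the animal ID in the labels. The deposited values are raw counts per Ensembl gene, which the authors obtained with featureCounts after trimming and STAR alignment to CanFam3.1. Tool versions, strandedness of the counting and the treatment of multi-mapped reads are not given in the sources used here. The study's methods describe ribosomal RNA depletion, while its labels name a stranded mRNA kit, so the enrichment is uncertain.

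The treatment contrast was fitted in edgeR 4.0.16 under R 4.3.3 (TMM scaling, quasi-likelihood test, dog as block). Genes needed 10 reads in 1 library, with Benjamini-Hochberg adjustment over all genes and an FDR under 0.01. Each SE is the size of the fold change over the root of its F value. For normalized counts, reads were scaled by TMM to the mean library size. Within each dog, log2 ratios are differences of log2 CPM (prior count 2). Deviations from the group means correlated between the 2 samples of each dog with 0.27, 0.41, 0.33, 0.08 and 0.28 (dogs 1 to 5). DESeq2 1.42.0, limma 3.58.1 (voom), other scalings and filters, a fit without the block and the omission of each dog served as alternatives. The fits were tested on simulated data. In fits with the dog as block, p-values weigh the treatment difference against the variation left after differences in level between dogs are removed. Estimates of this variation borrow from all genes.

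Symbols came from the first columns of the study's list of called genes, which names 1079 of 1190 genes, and the fold changes and p-values in that list were not used. The reference annotation pairs no Ensembl identifiers with symbols, and no sequences were used. The members and gene lists were chosen with earlier results of these data known. Named in the text are the 7 chains, ITGBL1, up to 4 called genes of each fixed list with the lowest p-values, VCAM1, FN1, COL1A1, PTPRC and FERMT3 (ICAM1, VTN, SPP1 and TLN1 were not analysed here), and the 3 nearest genes of each chain. Other genes of the lists, and the nearest genes after centring within conditions, were named after their values were seen. GPIIIa is named without values. Of the fixed lists for other cell types, those for dendritic cells, T and NK cells, B and plasma cells, neutrophils, endothelium, mesothelium and skeletal muscle had no matched name and were not analysed here. A result within the lists is counted but not reported here.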

Additional observations from a re-analysis of the deposited data

Results flagged for a closer look

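In groups of 5 dogs, a value was noted when its gap to the nearest other value exceeded 0.71 of the range of its group (Dixon's criterion), and 21 groups were examined, of which chance gives about 1 in 20. ITGAM in the Post-ACTH library of dog 2, at 203 normalized counts, stood apart from 89.5 to 109.7 in the other dogs, with a gap of 0.82 of the range. ITGA11 in the Post-ACTH library of dog 4, at 195 normalized counts, stood apart from 42.1 to 84.1 in the other dogs, with a gap of 0.73 of the range. Without dog 2 the log2 fold change of ITGAM was -1.03, and without dog 4 that of ITGA11 was -2.87.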

How the results depend on the processing

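The fold changes of the 7 chains and of both classes kept their direction and moved by less than the spread between dogs under every alternative, but the counts of calls did not. Genes called lower and higher (166 and 102) were 681 and 499 with DESeq2, 852 and 657 at an FDR under 0.05, and 266 and 172 without a filter beyond 1 read in 1 library. Listed pathway genes called lower and higher (11 and 1) were 26 and 5 with DESeq2, 22 and 5 at an FDR under 0.05 and 18 and 2 without the filter, and 0 were higher without the replicate block. Of the 7 chains, 7 were called with DESeq2 or at an FDR under 0.05, 4 without the filter, 4 without the replicate block, 2 with limma-voom and 0 when 10 reads were required in 5 libraries. Omission of 1 dog gave 0 to 202 genes lower, 1 to 116 higher, 0 to 6 listed genes lower, 0 to 1 higher and 0 to 2 chains, with the lowest number of genes without dog 2, where 1526 genes were lower and 1425 higher at an unadjusted p under 0.05 (edgeR). Relative to its reference, ITGAM ranged from -0.13 (without dog 4) to 0.32 and ITGA4 from -0.27 to 0.080, turning positive without dog 2 (0.010) and dog 5 (0.080), so neither has a firm direction. The sex term called 5 genes with DESeq2. Centring within conditions, chosen after seeing the data, kept 6 of 18 nearest genes. The causes were not tested. PDGFRA as a lone reference was not run, because it has no name here.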

Other observations

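Among markers of mast cells, mural and smooth muscle cells, epithelium and fibroblasts, CPA3, PDGFRB, PI16 and LUM passed an FDR of 0.01 in edgeR. LUM was also part of the fibroblast reference, and PI16 of the fibroblast sum given above. The mast cell genes CPA3 (a carboxypeptidase of their granules) and MS4A2 (a chain of their IgE receptor) summed to 16.5 to 42.2 normalized counts before treatment and to 0 to 3.22 afterwards. CPA3 passed an FDR of 0.01 with an adjusted p of 0.00798 by edgeR, from means of 15.9 ± 8.13 and 0.392 ± 0.541 (SD, n = 5), while MS4A2 had an adjusted p of 0.0333. The summed level of PDGFRB, NOTCH3 and MYH11, genes of mural and smooth muscle cells, lay between 3067 and 3853 before and between 2242 and 2795 after treatment. PDGFRB fell by 0.74 (SE 0.07, adjusted p = 0.00241), NOTCH3 had a log2 fold change of -0.67 (adjusted p = 0.0597), and MYH11 pointed the other way with 0.89 (adjusted p = 0.0898), higher in 4 of 5 dogs. EPCAM, an epithelial gene, lay between 95.5 and 223 before and between 138 and 331 after treatment, with overlapping groups and an adjusted p of 0.0177. PI16, a marker of fibroblast progenitors, fell by 3.30 on the log2 scale (SE 0.30, adjusted p = 0.00241), and LUM by 1.49 (SE 0.11, adjusted p = 0.00213). Only 1 to 4 genes of each of these lists had a name, and all had been called by the study.

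The chains differed in how much they varied between dogs before treatment. The coefficient of variation in Pre-ACTH was 7.49% for ITGAV, 21.5% for ITGAL, 22.4% for ITGA4, 30.8% for ITGAM, 32.3% for ITGA11, 47.4% for ITGAX and 58.3% for ITGA2. In Post-ACTH it was highest for ITGA11, at 68.9%, and lowest for ITGAL, at 14.3%.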
